A study of Homo sapiens with 16 samples.

Results

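The thioredoxin and glutaredoxin system was followed as 10 genes taken by name: the thioredoxins TXN and TXN2, the thioredoxin reductases TXNRD1 and TXNRD2, the thioredoxin-binding protein gene TXNIP, the sulfiredoxin gene SRXN1, and the glutaredoxins GLRX, GLRX2, GLRX3 and GLRX5. All 10 were found among the 18417 genes that the arrays name on a transcript cluster with 1 gene symbol. Each gene was read from 1 transcript cluster, the summary of all probes for 1 transcribed locus. Only GLRX5 had a further such cluster, and the one with the higher mean over all arrays was used, with the other given beside it.

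The cells were A375, a human amelanotic melanoma line, measured as total RNA on Affymetrix Human Gene 1.0 ST arrays with values on a log2 scale. G10 and A7 are clones of A375 that were stably transfected with human catalase cDNA in the pcDNA3 vector and isolated by clonal dilution, so that each stands for 1 clone. PCDNA3 cells carry the vector without the cDNA, and A375 cells were left untransfected. G10, A7 and PCDNA3 cells were kept in geneticin at 700 µg/ml, which the untransfected A375 cells did not receive, and the labels do not name the promoter that drives the cDNA. Each group had 4 arrays, labelled as biological replicates. The average of the PCDNA3 and A375 means served as control.

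Thioredoxins and glutaredoxins are small proteins that reduce disulfides in other proteins. Thioredoxins are recharged by thioredoxin reductases, which are selenoproteins that use NADPH, and glutaredoxins are recharged by glutathione. Together with catalase and the peroxiredoxins, whose reducing power they supply, they limit hydrogen peroxide. TXN, TXNRD1 and GLRX act mainly in the cytosol, TXN2, TXNRD2, GLRX2 and GLRX5 in mitochondria, and TXNIP binds thioredoxin and blocks it.

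CAT, the gene for the transfected catalase, measured 8.51, 8.55, 7.74 and 8.27 on the G10 arrays and 9.02, 8.92, 9.12 and 9.02 on the A7 arrays. The PCDNA3 arrays had 8.51, 8.51, 8.53 and 8.71, and the A375 arrays had 8.64, 9.03, 8.65 and 8.62. CAT was therefore not above the controls on the arrays labelled G10: the log2 fold change was -0.38 in G10 vs control (adjusted p = 0.0526), -0.30 against PCDNA3 alone (adjusted p = 0.226) and -0.47 against A375 alone (adjusted p = 0.0480). Without G10 arrays 3 and 4 the value in G10 vs control was -0.12 (adjusted p = 0.547). Without G10 arrays 1 and 2 it was -0.65 and CAT was called lower, as in 7 of 31 alternatives in all. CAT was lower in G10 than in A7 (-0.75, adjusted p = 0.00221), while A7 vs control came to 0.37 (adjusted p = 0.124). Every A7 array was above every PCDNA3 array for CAT, while A7 and A375 overlapped. In A7 vs control CAT was called higher in 5 of 31 alternatives. Among these were the fit of A7 and the controls alone and the fits without either pair of G10 arrays. Whether the probes of CAT lie within the transfected cDNA was not checked, and the name G10 is used here for the arrays labelled so. Within each clone arrays 1 and 2 stood apart from arrays 3 and 4. Over all clusters the pairs correlated at 0.994 and 0.992 within themselves and at 0.984 to 0.987 between them in G10, and at 0.994 and 0.995 against 0.987 to 0.993 in A7. The labels name no batch. In the mean over all 16 arrays, the 6 measured of 7 listed melanocyte lineage markers lay above 5.18, the 95th percentile of 381 olfactory receptor clusters, which served as the level of genes that are not transcribed. TYR was at 5.14 in the A375 group mean. Of the measured markers of other cells, 2 of 5 for keratinocytes, 2 of 4 for leukocytes, 1 of 4 for endothelium and 4 of 5 for fibroblasts exceeded it in the same mean. Among the leukocyte markers the group means were 2.78 to 3.14 for PTPRC, 4.26 to 4.36 for CD3E, 5.42 to 5.80 for CD14 and 9.88 to 10.55 for CD68, the highest of these in G10, and their part in the results was not tested. All 10 thioredoxin and glutaredoxin genes were above it, the lowest group mean being 7.18 for GLRX2 in G10.

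The promoter of TXNIP is shown because TXNIP had the widest range of group means, and that of ARRDC4 because this relative of TXNIP is known to share its main regulator. In human cells the factor MLX, paired with MLXIP or MLXIPL, carries glucose signals to genes with a carbohydrate response element, which is built of a pair of E boxes a few bases apart. The letters CACGNG, searched on both strands, occurred in 30.5% of the 35116 RefSeq promoter windows of 300 bases (GRCh38.p14, 250 before to 50 after the start). The 8 members with a window have 14 windows in all, and 6 of the 8 held the letters in at least 1. That count is of genes, some with several windows, so it cannot be set against the share of windows. A pair of them 5 bases apart on 1 strand, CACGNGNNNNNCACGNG, occurred in 20 windows, which is 0.057%, and among the members in TXNIP alone, where it begins 88 bases before the start. The ARRDC4 window held CACGNG but not this pair. The 250 bases before the start are given below for TXNIP (chr1:145996580-145996829, minus strand) and ARRDC4 (chr15:97960453-97960702, plus strand), with CACGNG on either strand in capitals.
TXNIP: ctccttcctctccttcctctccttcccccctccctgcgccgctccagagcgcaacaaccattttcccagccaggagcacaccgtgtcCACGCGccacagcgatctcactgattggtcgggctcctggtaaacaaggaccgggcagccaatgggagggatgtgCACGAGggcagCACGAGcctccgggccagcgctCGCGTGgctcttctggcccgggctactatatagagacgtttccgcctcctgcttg
ARRDC4: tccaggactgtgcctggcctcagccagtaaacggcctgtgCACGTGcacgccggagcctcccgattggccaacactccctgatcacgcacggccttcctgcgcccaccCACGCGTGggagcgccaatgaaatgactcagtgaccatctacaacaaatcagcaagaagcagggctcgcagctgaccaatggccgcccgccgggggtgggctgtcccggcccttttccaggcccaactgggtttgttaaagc

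TXNRD1 and SRXN1 are textbook targets of NRF2, the factor that binds antioxidant response elements. The core letters TGACNNNGC, searched on both strands, occurred in 13.3% of all windows. Among the members only TXNRD1 held them, and the SRXN1 window held none, which says only that these letters are not within its 300 bases. A stretch of 60 bases from each of the 2 TXNRD1 windows is shown, with the core in capitals, at chr12:104215649-104215708 and chr12:104286902-104286961, both on the plus strand.
TXNRD1, first window: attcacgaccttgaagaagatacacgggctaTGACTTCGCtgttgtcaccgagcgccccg
TXNRD1, second window: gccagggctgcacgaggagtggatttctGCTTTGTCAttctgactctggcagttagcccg
The other members with a window were TXN, TXNRD2, GLRX, GLRX2 and GLRX5. TXN2 and GLRX3 had no entry.

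In G10 vs control TXNIP and GLRX5 were higher and GLRX2 was lower, 3 of the 10 genes at an adjusted p under 0.05 (limma), where 17.8% of all 33297 transcript clusters passed (9.92% higher and 7.90% lower). In A7 vs control SRXN1 alone passed, and it was lower (1 of 10, against 5.69% of all clusters, 3.46% higher and 2.23% lower). Between the clones TXNIP, SRXN1 and GLRX5 were higher and GLRX2 was lower in G10 than in A7 (4 of 10, against 15.2%, 7.83% higher and 7.38% lower). No member passed in PCDNA3 vs A375, where limma called 0.123% of all clusters (0.045% higher and 0.0781% lower), and 1 of 10 had an unadjusted p under 0.05. The members' median log2 fold change was 0.11 in G10 vs control and 0.03 in A7 vs control, beside -0.04 and -0.02 over all clusters. Their median absolute change was 0.15 in G10 and 0.16 in A7, beside 0.14 and 0.11 over all clusters. TXNIP and GLRX5 were above the controls on every G10 array (2 of 10 genes, against 5.96% of all clusters), and none was below on every array (4.35% of all clusters were). SRXN1 and TXNRD1 were below the controls on every A7 array (2 of 10, against 2.47%), and none was above on every array (3.50% were). TXNIP, SRXN1 and GLRX5 were above A7 on every G10 array (3 of 10, against 8.89%), and none was below on every array (8.48% were). The called differences rest on TXNIP, GLRX5, GLRX2 and SRXN1, while TXN, TXN2, TXNRD1, TXNRD2, GLRX and GLRX3 passed in none of these comparisons. GLRX5 is counted here by its brighter cluster, and its other cluster passed in none of them.

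**Figure D1:**
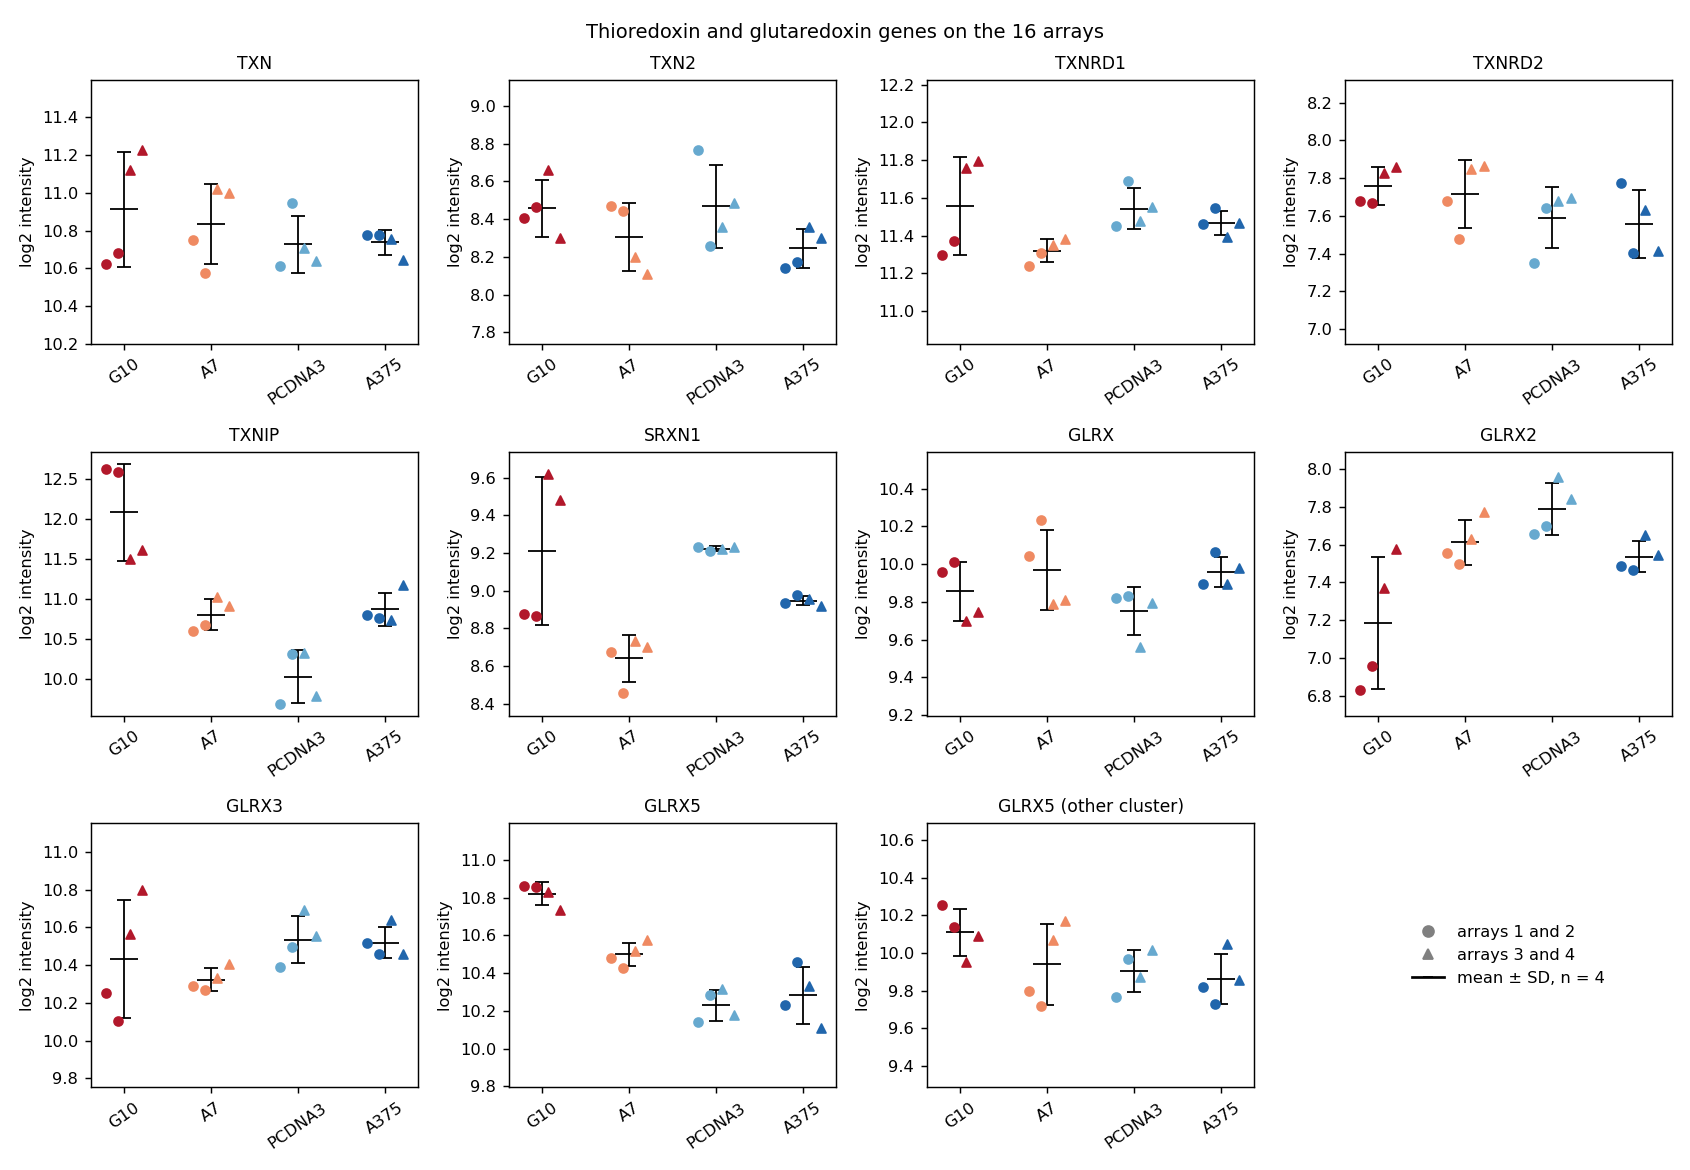
Log2 intensity of the 10 genes, and of the other GLRX5 cluster, on each array of G10, A7, PCDNA3 and A375; circles are arrays 1 and 2, triangles arrays 3 and 4, and black lines the mean ± SD (n = 4). TXNIP lies above every other array in G10, SRXN1 lies below every control array in A7, and the pairs of arrays part within the clones.

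TXNIP, the arrestin-like protein that binds thioredoxin and also lowers glucose uptake, had the largest difference of the 10 genes. Its log2 values were 12.63, 12.59, 11.50 and 11.61 in G10 and 10.60, 10.68, 11.02 and 10.91 in A7. In the controls they were 9.69, 10.31, 10.32 and 9.79 in PCDNA3 and 10.80, 10.76, 10.73 and 11.17 in A375. Every G10 array lay above every array of the other groups. TXNIP was 3.11-fold higher in G10 than in control (log2 fold change 1.64, SE 0.21, 95% confidence interval 1.19 to 2.08, adjusted p = 4.33e-05, limma) and 2.43-fold higher than in A7 (1.28, SE 0.24, adjusted p = 0.00144). As in all values from bulk RNA, a change in every cell and a change in the share of cells with the transcript cannot be told apart.

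The G10 arrays did not form 1 level for TXNIP: arrays 1 and 2 averaged 12.61 and arrays 3 and 4 averaged 11.56. Without arrays 1 and 2 the log2 fold change of G10 vs control was 1.11, and without arrays 3 and 4 it was 2.16, and it passed the test both ways. In order the groups were G10 (12.08 ± 0.61, SD, n = 4), A375 (10.87 ± 0.21), A7 (10.80 ± 0.20) and PCDNA3 (10.02 ± 0.34). Only the step between G10 and the next group passed the test (G10 vs A375 1.22, SE 0.24, adjusted p = 0.00256). A7 and A375 differed by -0.06 (95% confidence interval -0.58 to 0.45), and A7 was 0.78 above PCDNA3 (0.27 to 1.29, adjusted p = 0.0857). Against the control average A7 came to 0.36 (-0.09 to 0.80, adjusted p = 0.428).

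PCDNA3 cells had the lowest TXNIP, with every array below every A375 array, but the difference of -0.84 (95% confidence interval -1.35 to -0.33) did not pass the test across all clusters (adjusted p = 0.151). The same difference passed without G10 arrays 1 and 2 and without G10 arrays 3 and 4 (adjusted p = 0.0151 and 0.0116), and did not pass when only the PCDNA3 and A375 arrays were fitted (adjusted p = 0.0510). The G10 arrays do not enter the size of this difference, only the spread that the fit estimates over all groups together.

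The other alpha-arrestins and the factors that act on TXNIP were read from a list of 8 genes, of which 7 were measured. In G10 vs control 3 of the 7 were higher and none was lower (9.92% and 7.90% of all clusters were), and in A7 vs control 1 was higher and none was lower (3.46% and 2.23% of all clusters were). At an unadjusted p under 0.05 limma called none lower in either comparison. The list's median log2 fold change was 0.21 in G10 and 0.04 in A7, beside -0.04 and -0.02 over all clusters. ARRDC4, an alpha-arrestin that like TXNIP lowers glucose uptake, had 8.54, 8.55, 8.13 and 7.50 in G10 and 8.0, 8.11, 8.28 and 8.17 in A7. It had 6.91, 7.27, 6.78 and 6.88 in PCDNA3 and 7.29, 7.65, 7.39 and 7.67 in A375. Every A7 array was above every control array, whereas G10 array 4 lay within the A375 range. ARRDC4 was higher in G10 (0.95, SE 0.16, adjusted p = 0.000634) and in A7 (0.91, SE 0.16, adjusted p = 0.00304), and G10 vs A7 was 0.04 (95% confidence interval -0.36 to 0.44). The A7 call was lost against A375 alone (0.64, adjusted p = 0.0742) and without A7 arrays 3 and 4 (0.83, adjusted p = 0.0570).

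ARRDC3, an adaptor for ubiquitin ligases that is linked to the removal of receptors and integrins from the cell surface, had 11.07, 11.21, 9.64 and 9.91 in G10 and 8.97, 9.18, 9.60 and 9.48 in A7. The PCDNA3 arrays had 9.36, 9.41, 9.02 and 9.42, and the A375 arrays 10.13, 9.60, 10.01 and 10.21. G10 arrays 1 and 2 stood above all others, while arrays 3 and 4 lay among the controls, and without arrays 1 and 2 the difference was no longer called (0.13 against 0.81 with all arrays, adjusted p = 0.725 against 0.0332). The call was lost in 8 of 31 alternatives, against A375 alone among them (0.47, adjusted p = 0.350). ARRDC1, a relative involved in the release of vesicles, also had its highest values on G10 arrays 1 and 2 (7.76 and 7.81, against 7.10 and 6.99 on arrays 3 and 4) and was not called (0.12, 95% confidence interval -0.16 to 0.40). In PCDNA3 vs A375 every PCDNA3 array was below every A375 array for ARRDC1, ARRDC3 and ARRDC4, as for TXNIP and for 4.87% of all clusters, while ARRDC2 overlapped (mean 6.91 in PCDNA3 and 6.90 in A375). The 3 relatives had log2 fold changes of -0.27, -0.69 and -0.54 that did not pass the test (adjusted p = 0.496, 0.338 and 0.252).

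MLX, the common partner of the glucose-sensing factors, was higher in G10 than in control (0.34, SE 0.10, adjusted p = 0.0302) and than in A7 (0.45, SE 0.12, adjusted p = 0.0147). Against PCDNA3 alone the difference was 0.14 (adjusted p = 0.507), and the call was lost in 7 of 31 alternatives, among them the fits without G10 arrays 1 and 2 (0.38, adjusted p = 0.0802) and without G10 arrays 3 and 4 (0.29, adjusted p = 0.149), in which the value stayed near its size with all arrays. Its partners had G10 vs control values of 0.21 for MLXIP (95% confidence interval -0.06 to 0.49) and -0.11 for MLXIPL (-0.36 to 0.15). MLXIPL lay near the level of genes that are not transcribed, so that its value can understate a difference. Its means were 5.16 in G10, 5.31 in A7, 5.34 in PCDNA3 and 5.19 in A375.

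**Figure D2:**
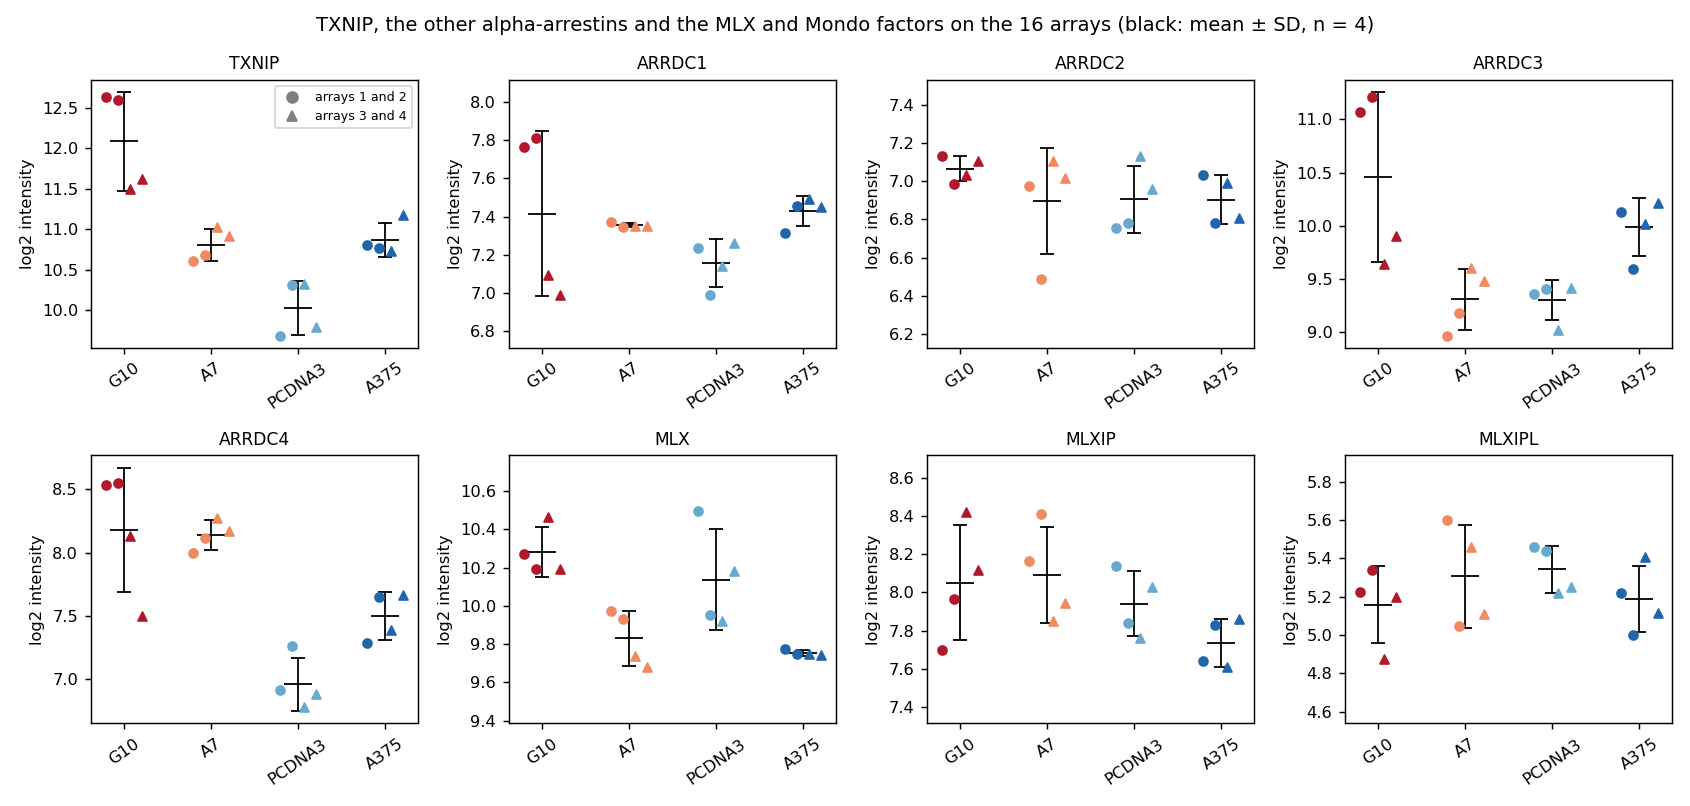
Log2 intensity of TXNIP, the alpha-arrestins ARRDC1 to ARRDC4, and MLX, MLXIP and MLXIPL on each array of G10, A7, PCDNA3 and A375 (circles arrays 1 and 2, triangles arrays 3 and 4, black lines mean ± SD, n = 4). TXNIP, ARRDC1, ARRDC3 and ARRDC4 were highest on G10 arrays 1 and 2, and ARRDC4 was also above every control array on all A7 arrays.

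TXN, the cytosolic thioredoxin, had 10.62, 10.68, 11.12 and 11.23 in G10 and 10.75, 10.57, 11.02 and 11.00 in A7. The controls lay at 10.61, 10.95, 10.71 and 10.64 in PCDNA3 and at 10.77, 10.78, 10.76 and 10.64 in A375. The clones overlapped the controls on arrays 1 and 2 and exceeded all of them on arrays 3 and 4. With all arrays TXN came to 0.18 in G10 vs control (95% confidence interval -0.08 to 0.44) and 0.10 in A7 vs control (-0.15 to 0.36), and without G10 arrays 1 and 2 the G10 value was 0.44 (adjusted p = 0.0251). TXN2, the mitochondrial thioredoxin, ranged over 8.30 to 8.66 in G10, 8.11 to 8.47 in A7, 8.26 to 8.77 in PCDNA3 and 8.14 to 8.36 in A375. Its changes were 0.10 in G10 vs control (-0.12 to 0.32) and -0.05 in A7 vs control (-0.27 to 0.17). Among the members RefSeq names most pseudogenes for TXN, 7 by symbol, and whether probes of the array also match them was not checked.

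TXNRD1, the cytosolic reductase of TXN, had 11.30, 11.37, 11.76 and 11.80 in G10 and 11.24, 11.31, 11.35 and 11.38 in A7. It had 11.45, 11.69, 11.47 and 11.55 in PCDNA3 and 11.46, 11.55, 11.39 and 11.47 in A375. Every A7 array was below every control array, and the G10 arrays lay on either side of the controls, arrays 1 and 2 below and arrays 3 and 4 above. The difference was -0.19 in A7 vs control (95% confidence interval -0.38 to 0.01, adjusted p = 0.340) and 0.05 in G10 vs control (-0.15 to 0.25). Without G10 arrays 1 and 2 TXNRD1 was called higher in G10 (0.27, adjusted p = 0.0406). TXNRD2, the mitochondrial reductase, ranged over 7.67 to 7.86 in G10, 7.48 to 7.86 in A7, 7.35 to 7.70 in PCDNA3 and 7.40 to 7.77 in A375, with 0.18 in G10 vs control (-0.03 to 0.40) and 0.14 in A7 vs control (-0.07 to 0.35).

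SRXN1 encodes sulfiredoxin, which repairs peroxiredoxins that peroxide has overoxidized. Its values were 8.88, 8.87, 9.62 and 9.48 in G10 and 8.68, 8.46, 8.73 and 8.70 in A7. They were 9.23, 9.21, 9.22 and 9.23 in PCDNA3 and 8.94, 8.98, 8.95 and 8.92 in A375. A7 was below every other array, PCDNA3 was above every A375 array, and G10 arrays 1 and 2 lay below and arrays 3 and 4 above all controls. SRXN1 was 1.36-fold lower in A7 than in control (log2 fold change -0.44, SE 0.12, adjusted p = 0.0439) and 1.48-fold higher in G10 than in A7 (0.57, SE 0.14, adjusted p = 0.0108). The value in G10 vs A7 was 0.91 without G10 arrays 1 and 2, and the call was lost without G10 arrays 3 and 4 (0.23, adjusted p = 0.0810), without A7 arrays 1 and 2 (0.49, adjusted p = 0.0963) and when only G10 and A7 were fitted (adjusted p = 0.0869). The A7 call was close to the limit: it was lost when any 1 array of A7, PCDNA3 or A375 was left out, with arrays centred on their median, and against A375 alone (-0.31, adjusted p = 0.295), though not against PCDNA3 alone (-0.58, adjusted p = 0.0259) or when A7 and the controls were fitted without G10 (adjusted p = 0.000996). In G10 vs control SRXN1 was at 0.13 (95% confidence interval -0.13 to 0.39) with all arrays, at 0.46 without arrays 1 and 2 (adjusted p = 0.00173) and at -0.21 without arrays 3 and 4 (adjusted p = 0.0721), so that its sign followed the pair of arrays. The groups ran PCDNA3 (9.22 ± 0.01), G10 (9.21 ± 0.39), A375 (8.95 ± 0.03) and A7 (8.64 ± 0.12), and no step between neighbours passed the test (G10 vs PCDNA3 -0.01, 95% confidence interval -0.31 to 0.29, G10 vs A375 0.26, -0.04 to 0.56, and A7 vs A375 -0.31, -0.61 to -0.01).

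**Figure D3:**
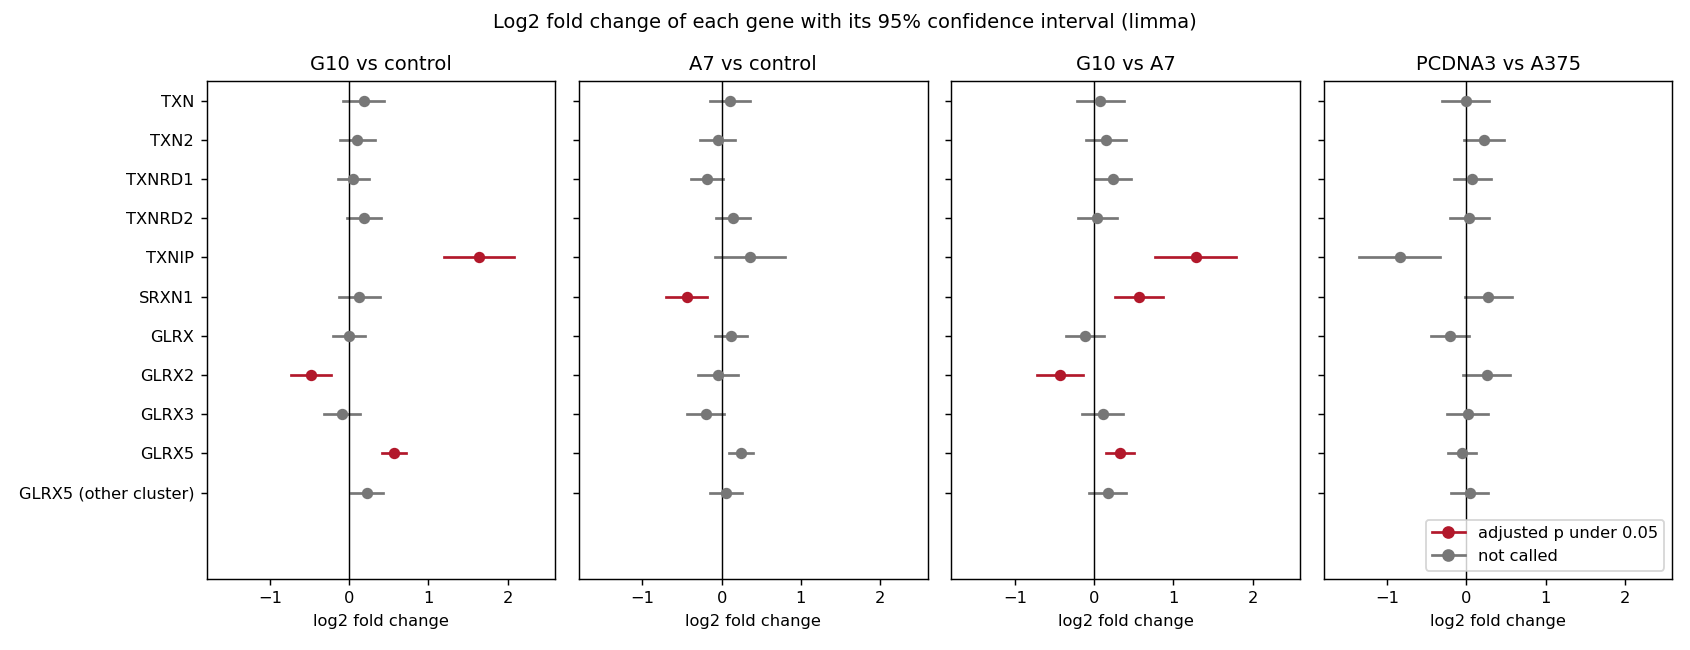
Log2 fold change (x axis) of the 10 genes and of the other GLRX5 cluster in G10 vs control, A7 vs control, G10 vs A7 and PCDNA3 vs A375, with 95% confidence intervals from limma; red marks an adjusted p under 0.05. TXNIP at 1.64 and GLRX5 at 0.57 lie right of 0 and GLRX2 at -0.48 lies left of it in G10, and SRXN1 at -0.44 is the only red point in A7.

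GLRX5, a mitochondrial glutaredoxin that passes on iron-sulfur clusters, had the narrowest spread of the genes that differed in G10. Its values were 10.86, 10.86, 10.83 and 10.74 in G10 and 10.48, 10.43, 10.52 and 10.58 in A7. The controls had 10.14, 10.28, 10.31 and 10.18 in PCDNA3 and 10.23, 10.46, 10.33 and 10.11 in A375. Every G10 array was above every other array, and the A7 arrays overlapped the controls in 1 A375 array only. GLRX5 was 1.48-fold higher in G10 than in control (0.57, SE 0.07, adjusted p = 4.34e-05), a call that held under each other fit and with each array or pair of arrays left out, at values of 0.40 to 0.60, and 1.25-fold higher than in A7 (0.32, SE 0.08, adjusted p = 0.0140). The call in G10 vs A7 was lost without G10 arrays 1 and 2 (0.28, adjusted p = 0.0874) and without A7 arrays 1 and 2 (0.28, adjusted p = 0.114). A7 vs control was 0.24 (95% confidence interval 0.09 to 0.40, adjusted p = 0.0619). The groups ran G10 (10.82 ± 0.06), A7 (10.50 ± 0.06), A375 (10.28 ± 0.15) and PCDNA3 (10.23 ± 0.08), and only the step between G10 and A7 passed the test.

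The other GLRX5 cluster also had its highest mean in G10, with a difference of less than this size. It had 10.26, 10.14, 9.96 and 10.09 in G10 and 9.80, 9.72, 10.07 and 10.17 in A7, beside 9.77 to 10.02 in PCDNA3 and 9.73 to 10.05 in A375. It came to 0.22 in G10 vs control (95% confidence interval 0.02 to 0.43, adjusted p = 0.131) and 0.17 in G10 vs A7 (adjusted p = 0.394), and with the mean of both clusters GLRX5 was no longer called in G10 vs A7 (0.25, adjusted p = 0.0636). RefSeq names 3 pseudogenes of GLRX5, and which copy the probes of either cluster match was not checked. In G10 vs control the other cluster was called in none of 31 alternatives (lowest adjusted p = 0.0515, limma). The GLRX5 calls therefore rest on the brighter cluster, alone or averaged in. Whether the gene differs, and by how much, is uncertain.

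GLRX2, a glutaredoxin of mitochondria whose human form can itself hold an iron-sulfur cluster, was lower in G10. It had 6.83, 6.96, 7.37 and 7.58 in G10 and 7.55, 7.50, 7.63 and 7.77 in A7. It had 7.66, 7.70, 7.96 and 7.84 in PCDNA3 and 7.49, 7.47, 7.65 and 7.54 in A375. It was 1.40-fold lower in G10 than in control (log2 fold change -0.48, SE 0.12, adjusted p = 0.00961) and 1.35-fold lower in G10 than in A7 (-0.43, SE 0.14, adjusted p = 0.0461). G10 arrays 1 and 2 lay below every other array, while array 3 lay below and array 4 within the A375 range. Without arrays 1 and 2 the log2 fold change was -0.19 in G10 vs control (adjusted p = 0.280), and without arrays 3 and 4 it was -0.77. Against A375 alone the value was -0.35 (adjusted p = 0.107), and the G10 vs A7 call was lost in 18 of 29 alternatives. A7 vs control was -0.05 (95% confidence interval -0.30 to 0.20). The groups ran PCDNA3 (7.79 ± 0.14), A7 (7.61 ± 0.12), A375 (7.54 ± 0.08) and G10 (7.18 ± 0.35), and no step between neighbours passed the test.

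GLRX, the cytosolic glutaredoxin, had 9.96, 10.01, 9.70 and 9.75 in G10 and 10.04, 10.23, 9.79 and 9.81 in A7, beside 9.56 to 9.83 in PCDNA3 and 9.89 to 10.07 in A375. Arrays 3 and 4 minus arrays 1 and 2 gave -0.26 in G10 and -0.34 in A7. GLRX came to 0.00 in G10 vs control (95% confidence interval -0.20 to 0.20) and 0.11 in A7 vs control (-0.09 to 0.32). GLRX3, a glutaredoxin with several domains that acts in cytosolic iron handling, ranged over 10.10 to 10.80 in G10, 10.27 to 10.40 in A7, 10.39 to 10.69 in PCDNA3 and 10.46 to 10.64 in A375. Its values were -0.10 in G10 vs control (-0.32 to 0.13) and -0.20 in A7 vs control (-0.43 to 0.02). Without G10 arrays 3 and 4 GLRX3 was called lower in G10 (-0.35, adjusted p = 0.0116), and without arrays 1 and 2 it was not (0.16).

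Between arrays 1 and 2 and arrays 3 and 4 of G10, 9 of the 10 genes did not overlap, where 51.9% of all clusters did not. In A7 this held for 10 of 10, against 59.7% of all clusters, in PCDNA3 for 4 (32.6%) and in A375 for 3 (38.6%). Arrays 3 and 4 of G10 exceeded arrays 1 and 2 by 0.52 for TXN, 0.44 for TXNRD1, 0.68 for SRXN1, 0.58 for GLRX2 and 0.51 for GLRX3, and for TXNIP this difference was -1.05. In A7 the same difference was 0.35 for TXN, 0.33 for TXNIP and -0.30 for TXN2, and at most 0.15 in size for TXNRD1, SRXN1, GLRX3 and GLRX5. The part of an unnamed batch or culture in these pairs was not tested.

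In PCDNA3 vs A375, the comparison that carries the vector and the selection but no catalase cDNA, 4 of the 10 genes did not overlap between the groups. SRXN1 and GLRX2 were above on every PCDNA3 array (6.26% of all clusters were), and TXNIP and GLRX were below (4.87% were). Their log2 fold changes were 0.28, 0.25, -0.84 and -0.21. The value of TXNIP had an adjusted p of 0.151, those of the other 3 lay between 0.446 and 0.477 (limma). These p-values rest on a spread estimated over all groups together, G10 included. For SRXN1 the SD was 0.01 in PCDNA3 and 0.03 in A375, against 0.39 in G10. For GLRX2 it was 0.14 in PCDNA3 and 0.08 in A375, against 0.35 in G10. The p-values thus do not measure the spread of PCDNA3 and A375 alone.

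The genes whose 16 values ran closest to a member, by the root mean square difference of mean-centred log2 values, were found for the 3 members with the widest range of group means. For TXNIP they were SORBS2, an adaptor of the actin cytoskeleton, and EIF4A2, an RNA helicase of translation initiation, at 0.27 and 0.31 over 16 arrays, where TXNIP itself varied by 0.81 about its mean. SORBS2 averaged 8.75 in G10, 6.94 in A7, 6.62 in PCDNA3 and 7.31 in A375. For GLRX2 the closest were DGKZ and DYNC1LI1, both at 0.085 (0.28 for GLRX2 about its mean), and for GLRX5 they were BABAM1 and FBXW9 at 0.099 and 0.100 (0.25 for GLRX5). These arrays share their groups and their pairs, and the likeness is a description.

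Genes that work beside the system were counted from 8 lists, TXNIP's relatives among them, and each count is to be read beside the 9.92% of all clusters that were higher and the 7.90% that were lower in G10 vs control, and the 3.46% and 2.23% in A7 vs control. Of 11 measured clients of thioredoxin, 2 were higher and 1 lower in G10 vs control, and 2 were higher and none lower in A7 vs control. MSRA and MSRB3, which repair oxidized methionine, were higher in A7 (0.65, SE 0.11, adjusted p = 0.00127, and 0.51, SE 0.09, adjusted p = 0.00244). Without A7 arrays 1 and 2 MSRB3 was no longer called (0.42). MSRA had 7.69, 7.73, 7.65 and 7.62 in A7, above 6.90 to 7.38 in PCDNA3 and 6.75 to 7.01 in A375. Ribonucleotide reductase draws its electrons from thioredoxin or glutaredoxin, and 2 of its subunit genes changed in opposite directions in G10. RRM1, for the large subunit, was lower (-0.71, SE 0.10, adjusted p = 0.000150). RRM2B, a p53 target that encodes 1 form of the small subunit, was higher (0.60, SE 0.11, adjusted p = 0.000848). Other forms of the small subunit are not given here, so these values do not describe the enzyme as a whole. RRM1 had 10.01, 9.98, 10.40 and 10.64 in G10, all below the 11.04 to 11.12 of A7, the 10.92 to 11.12 of PCDNA3 and the 10.87 to 11.02 of A375.

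Of 20 measured relatives with a thioredoxin fold, 3 were higher and 3 lower in G10 vs control. In A7 vs control limma called 0 of them, and 5 had an unadjusted p under 0.05. TXNDC16, a thioredoxin-like protein of the endoplasmic reticulum, was higher in G10 (0.93, SE 0.14, adjusted p = 0.000177), with 6.74, 6.66, 6.02 and 6.05 in G10 and no control array above 5.91. Its PCDNA3 mean of 5.22 lay near the level of genes that are not transcribed, so that its value can understate a difference. TXNDC16 was also higher in G10 than in A7 (0.74, adjusted p = 0.00407), a call lost without G10 arrays 1 and 2 (0.41) and without A7 arrays 3 and 4 (0.68). TXNDC11 was lower in G10 than in control (-0.34, adjusted p = 0.00565) and lost this call without G10 arrays 1 and 2. PDIA4, a disulfide isomerase of the same compartment, was lower in G10 (-0.46, SE 0.09, adjusted p = 0.00224), though against PCDNA3 alone the call was lost (-0.24). TXNDC9, a binder of the chaperonin TRiC, was lower in G10 as well (-0.60, SE 0.15, adjusted p = 0.00952), and lost its call against A375 alone (-0.49) and without G10 arrays 1 and 2 (-0.27).

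On the supply side, limma called 5 of 11 measured NADPH genes lower and none higher in G10 vs control, with none higher at an unadjusted p under 0.05 either. Their median was -0.14. IDH1, the cytosolic isocitrate dehydrogenase that forms NADPH, had 10.89, 10.86, 10.56 and 11.23 in G10 and 12.00, 12.03, 12.00 and 11.91 in A7, beside 11.71 to 12.00 in PCDNA3 and 11.87 to 12.35 in A375. It was lower in G10 (-1.07, SE 0.11, adjusted p = 6.91e-06), a call that held under each other fit and with each array or pair of arrays left out. PGD of the pentose phosphate pathway was lower too (-0.42, SE 0.09, adjusted p = 0.00261), as was the mitochondrial IDH2 (-0.83, SE 0.26, adjusted p = 0.0351), for which G10 arrays 1 and 2 were at 9.08 and 8.98 and arrays 3 and 4 at 7.37 and 7.79. Without arrays 3 and 4 the IDH2 value was -0.11, and its call was lost in 12 of 31 alternatives. PGD lost its call without G10 arrays 3 and 4. In A7 vs control only NADK2, the mitochondrial NAD kinase, passed, and it was higher (0.72, SE 0.13, adjusted p = 0.00420), a call lost without A7 arrays 1 and 2 (0.59).

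Of the 6 genes of glutathione supply, 2 were lower and none higher in G10 vs control (4 lower and none higher at an unadjusted p under 0.05), and 1 was higher and 1 lower in A7 vs control. SLC7A11, the cystine carrier, was lower in G10 (-1.04, SE 0.27, adjusted p = 0.0117) and parted by pairs, with 8.59 and 8.62 on arrays 1 and 2 against 10.18 and 10.21 on arrays 3 and 4. The A375 range was 10.12 to 10.64, and without G10 arrays 1 and 2 the value was -0.25 and the call was lost. GCLM, a subunit of the first enzyme of glutathione synthesis and a known NRF2 target, was lower in G10 (-0.43, SE 0.14, adjusted p = 0.0422) and in A7 (-0.51, SE 0.14, adjusted p = 0.0411). The GCLM call was lost in 19 of 31 alternatives in G10 and in 15 of 31 in A7, against A375 alone in both (-0.12 in G10 and -0.20 in A7). In G10 the value was -0.10 without arrays 1 and 2 and -0.75 without arrays 3 and 4. SLC3A2, the partner chain of SLC7A11, was lower in G10 than in A7 (-0.46, adjusted p = 0.0204), a call lost in 9 of 29 alternatives. GSR, glutathione reductase, was higher in A7 than in control by 0.30 (SE 0.08, adjusted p = 0.0474), a call lost in 20 of 31 alternatives.

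For iron-sulfur cluster assembly, the process in which GLRX5 works, 2 of 19 measured genes were higher and 3 lower in G10 vs control, and 1 was higher in A7. The list's median was -0.07 in G10 vs control, and the share that was higher lay near the 9.92% of all clusters. The 2 called higher were NFS1 (0.47, SE 0.09, adjusted p = 0.00162) and its partner LYRM4 (0.56, SE 0.07, adjusted p = 4.25e-05), which together form the desulfurase that supplies the sulfur. LYRM4 had 7.20, 7.38, 7.37 and 7.34 in G10 and 6.93, 6.84, 6.75 and 6.77 in A7, beside 6.64 to 6.86 in PCDNA3 and 6.63 to 6.85 in A375. NFS1 lost its call without G10 arrays 1 and 2 (0.36). FDX1, a mitochondrial ferredoxin, was lower in G10 (-0.46, SE 0.09, adjusted p = 0.00119), with 7.37, 6.89, 6.98 and 6.98 in G10, all below the controls. CIAPIN1, which acts in cytosolic cluster assembly, was lower in G10 too (-0.31, adjusted p = 0.00792), and lost its call against A375 alone and without G10 arrays 1 and 2.

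Thioredoxin reductases need selenocysteine, and of 6 genes for its insertion 1 was higher and 2 lower in G10 vs control. None was called by limma in A7 vs control, where 2 had an unadjusted p under 0.05. SEPSECS, which makes selenocysteine on its tRNA, was higher in G10 (0.61, SE 0.15, adjusted p = 0.00804) and SEPHS2, the selenophosphate synthetase, was lower (-0.33, SE 0.08, adjusted p = 0.00550). SEPSECS lost its call without G10 arrays 1 and 2 (0.27) and against A375 alone (0.45). EEFSEC, the elongation factor for selenocysteine, was lower in G10 (-0.28, adjusted p = 0.0176), a call lost in 6 of 31 alternatives, and PSTK, the kinase that acts before SEPSECS, was higher in G10 than in A7 (0.44, adjusted p = 0.0148), a call lost in 6 of 29. The A7 mean of PSTK, 5.22, lay near the level of genes that are not transcribed, so that its value can understate a difference.

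Among 9 measured regulators and targets of NRF2, 2 were higher and 1 lower in G10 vs control and 3 were lower and none higher in A7 vs control, with 2 higher at an unadjusted p under 0.05 in A7 (limma). BACH1, a repressor at NRF2 target genes, had 8.17, 8.16, 8.66 and 8.16 in G10 and 7.52, 7.63, 7.37 and 7.35 in A7, beside 7.75 to 7.98 in PCDNA3 and 7.66 to 7.83 in A375. Every G10 array was above and every A7 array was below all control arrays. BACH1 was thus higher in G10 than in control (0.47, SE 0.10, adjusted p = 0.00292) and lower in A7 (-0.35, SE 0.10, adjusted p = 0.0439), though the A7 call was lost in 15 of 31 alternatives. HMOX1, the heme oxygenase gene and an NRF2 target, was lower in A7 (-0.91, SE 0.25, adjusted p = 0.0395), with 7.63, 7.33, 7.48 and 7.87 in A7, 9.0 to 9.17 in PCDNA3 and 7.59 to 8.21 in A375. Its A7 arrays overlapped those of A375 and lay below those of PCDNA3, and the call was lost in 13 of 31 alternatives, against A375 alone among them (-0.30, adjusted p = 0.693). MAFG, a partner of NRF2 and BACH1, was higher in G10 by its brightest cluster (0.31, adjusted p = 0.0397), a call lost in 14 of 31 alternatives. Its other clusters were not called in G10 vs control, at 0.16 (adjusted p = 0.169) and 0.07 (adjusted p = 0.646). OSGIN1, an NRF2 target that restrains growth, was lower in A7 (-0.44, SE 0.09, adjusted p = 0.00754) and in G10 (-0.28, SE 0.09, adjusted p = 0.0393). Against A375 alone both OSGIN1 calls were lost, at -0.25 in A7 and -0.09 in G10. The A7 call was also lost without A7 arrays 1 and 2 (-0.31), and the G10 call in 11 of 31 alternatives, among them without G10 arrays 1 and 2 (-0.16).

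**Figure D4:**
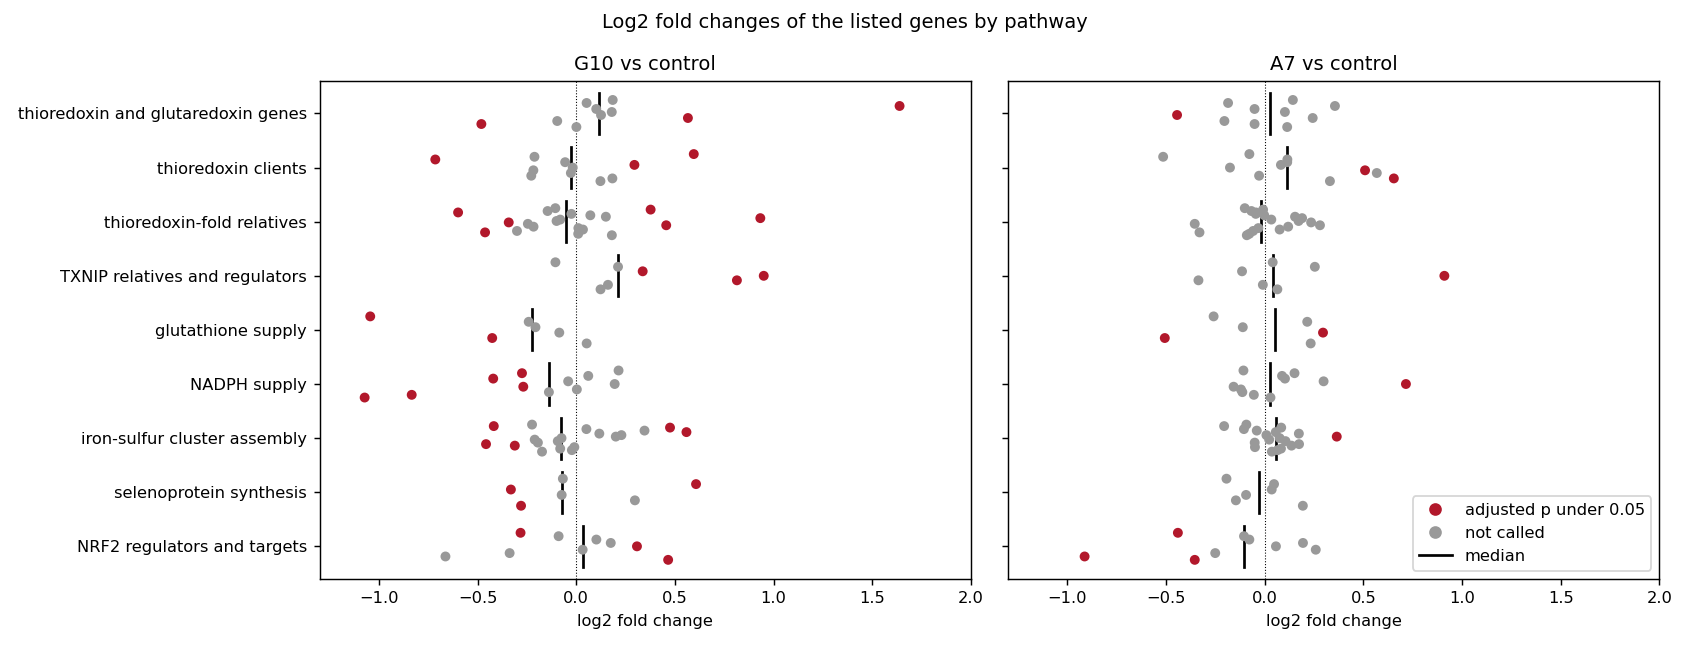
Log2 fold change (x axis) of each measured gene of the 10-gene system and of the 8 lists in G10 vs control and A7 vs control; red marks an adjusted p under 0.05 and black bars the median of each list. In G10 the NADPH supply genes that passed all lie left of 0, while TXNIP at 1.64 is the point farthest to the right.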

How the data were processed

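RNA of 4 groups of A375 melanoma cells, 4 arrays each, was hybridised to Affymetrix Human Gene 1.0 ST arrays. The authors corrected background, normalised and summarised the probes by RMA, and deposited log2 intensities for 33297 transcript clusters on 16 arrays; the tools in the labels are RMA and limma, and the genome build was not given in the sources used here. RMA normalises across arrays, so a shift shared by most genes is removed, and the number of arrays limits the precision. Array medians lay between 5.85 and 5.97.

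Clusters were named from the platform annotation, and of these 19460 had 1 gene symbol, 1754 several and 12083 none. Only single-symbol clusters were used for named genes, so that TXNRD3, whose cluster carries several symbols, has no value here. limma 3.58.1 in R 4.3.3 fitted 1 mean per group over all clusters, with Benjamini-Hochberg adjustment and calls at an adjusted p under 0.05. Labels call the arrays biological replicates, but do not say how cultures were kept apart. Named were all members, CAT, up to 4 genes per pathway list with the largest change among those called, and the 2 genes most like each of the 3 members with the widest range of group means. ARRDC1, ARRDC2, MLXIP, MLXIPL, TYR and the leukocyte markers fall outside this rule and were chosen after their values were seen. Members and lists were chosen with earlier results of these data known. The fit was tested on simulated data. Promoter windows came from RefSeq, and Python 3.11.15 searched them. Alternatives were other controls, normalisations, filters, variance models, a replicate block, limits and arrays left out.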

Additional observations from a re-analysis of the deposited data

Results flagged for a closer look

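G10 and A7 differed from each other, by the direct contrast of the clones in limma, for 4 members and for CAT. The log2 difference of G10 vs A7 was 1.28 for TXNIP (adjusted p = 0.00144), 0.57 for SRXN1 (adjusted p = 0.0108), 0.32 for GLRX5 (adjusted p = 0.0140) and -0.43 for GLRX2 (adjusted p = 0.0461). The SRXN1 call was lost without G10 arrays 3 and 4 (0.23, adjusted p = 0.0810), the GLRX5 call without G10 arrays 1 and 2 (0.28, adjusted p = 0.0874) and without A7 arrays 1 and 2 (0.28, adjusted p = 0.114), and the GLRX2 call in 18 of 29 alternatives, among them without G10 arrays 1 and 2 (-0.14, adjusted p = 0.513). For CAT it was -0.75 (adjusted p = 0.00221), with the arrays labelled G10 the lower ones. G10 and A7 are 1 clone each, so that differences between clones and differences that go with the cDNA cannot be told apart.

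Single arrays stood away from the other 3 of their group in 6 of 48 groups of 4 examined, where chance gives about 1 in 20. TXNIP had 11.17 on A375 array 4, against 10.73 to 10.80 on the others, and TXN had 10.64 on the same array, against 10.76 to 10.78. TXNRD2 had 7.35 on PCDNA3 array 1, against 7.64 to 7.70, and GLRX had 9.56 on PCDNA3 array 3, against 9.79 to 9.83. CAT had 8.71 on PCDNA3 array 4, against 8.51 to 8.53, and 9.03 on A375 array 2, against 8.62 to 8.65.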

How the results depend on the processing

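No fold change of a member called in the main fit (all arrays, both controls) turned its sign. No call gained in an alternative had a sign opposite to the main fit. Of 1200 alternative values, 1144 kept their side of the threshold, among them 54 uncalled values that changed sign. Of the rest, 42 lost a call and 14 gained one. TXNIP and GLRX5 in G10 vs control kept their calls under all alternatives, which do not include the strict limits below. The other GLRX5 cluster was not called in G10 vs control under any of them. Between the pairs of G10 arrays the sign did change. In G10 vs control TXN, TXNRD1 and SRXN1 were called higher without arrays 1 and 2 and had negative values without arrays 3 and 4. GLRX3 was called lower without arrays 3 and 4 and had a positive value without arrays 1 and 2. Of 10 members, 1 was called in A7 vs control. It was 0 against A375 alone, with arrays centred on their median, with an adjusted p under 0.001 and a log2 fold change of at least 1 (strict limits), without A7 arrays 1 and 2 and without A7 arrays 3 and 4. It was 2 with clusters above the olfactory receptor level only, limma-trend, array weights or an unadjusted p under 0.05, and 0 to 1 with 1 array left out. In G10 vs control, 3 members were called, 1 under strict limits, 5 without G10 arrays 1 and 2, and 3 with any 1 array left out. In G10 vs A7 it was 4, 2 when only these arrays were fitted, 0 under strict limits, 1 without A7 arrays 1 and 2, and 3 to 4 with 1 array left out. In PCDNA3 vs A375 it was 0, 1 with array weights, an unadjusted p under 0.05 or without G10 arrays 1 and 2, and 2 without G10 arrays 3 and 4. The array pairs were left out after seeing the data. Arrays of a group outside a comparison enter it only through the spread, which the fit estimates over all groups together. The p-values of PCDNA3 vs A375 thus depend in part on the spread within G10. What sets the array pairs apart was not tested.

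Of all clusters, 1895 were called in A7 vs control, 178 under strict limits, 5679 unadjusted, 2845 without G10 arrays 3 and 4, 724 without A7 arrays 1 and 2, and 1073 to 2120 with 1 array left out. In G10 vs control 5934 were called, 530 under strict limits, 9380 unadjusted, and 4588 to 6009 with 1 array left out. In G10 vs A7 it was 5065, 630 under strict limits, 8532 unadjusted, and 4037 to 5077 with 1 array left out. In PCDNA3 vs A375 it was 41, 431 with only these arrays, 63 after further quantile normalization, 168 above the olfactory receptor level, 73 with limma-trend, 582 with array weights, 1 under strict limits, 4198 unadjusted, and 2 to 168 with 1 array left out. Without G10 arrays 1 and 2 it was 1048, without G10 arrays 3 and 4 it was 1351, without A7 arrays 1 and 2 it was 26, and without A7 arrays 3 and 4 it was 27.

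Deviations of same-numbered arrays in different groups correlated at -0.16 to 0.23. Arrays with different numbers were not compared in this way, so these values do not settle whether replicate numbers pair the arrays. With the replicate number as a block the counts of members stayed at 1 in A7 vs control, 3 in G10 vs control, 4 in G10 vs A7 and 0 in PCDNA3 vs A375, and those of clusters were 1751, 5743, 4837 and 50. Among the other named genes, the block ended the calls of ARRDC3, OSGIN1 and MAFG in G10 vs control and of GSR and BACH1 in A7 vs control (adjusted p = 0.0524, 0.0521, 0.0599, 0.0534 and 0.0694), and PSTK and HMOX1 in G10 vs control gained one (0.0394 and 0.0354).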
